A study of Homo sapiens with 8 samples.

Results

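The 5 long noncoding RNAs described here are NEAT1, KCNQ1OT1, NORAD, OIP5-AS1 and MEG3, chosen by name among the 14597 genes that held at least 1 crosslink site in this series. NEAT1 is the scaffold of paraspeckles, nuclear bodies that lie beside splicing speckles, and it is made as a short and a long isoform that start at the same promoter. KCNQ1OT1 is a nuclear antisense RNA that silences imprinted genes in cis, MEG3 is a maternally expressed imprinted nuclear RNA, NORAD binds Pumilio proteins, and OIP5-AS1 (cyrano) is known for its pairing with a microRNA. Dyskerin, which converts uridine to pseudouridine, and GAR1 are core proteins of the H/ACA complex. Its targets are picked by guide RNAs, the snoRNAs of the nucleolus and the scaRNAs of Cajal bodies.

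The libraries were made by individual-nucleotide resolution crosslinking and immunoprecipitation (iCLIP) from U2OS cells, an osteosarcoma line exposed to ultraviolet light before its nuclei were isolated. Beads carried an antibody to dyskerin (Abnova), an antibody to GAR1 (Proteintech) or mouse IgG, with a separate IgG set for each antibody and 2 numbered libraries in each of the 4 groups. No cells were treated or depleted, the labels do not name an IgG matched in species to the GAR1 antibody, and they do not say whether the 2 libraries of a group came from separate cultures, so p-values measure only the spread between these libraries. Each site is 1 crosslinked nucleotide with its number of unique cDNAs, and a level, in CPM, is 1e6 times the cDNAs of a gene over all peak cDNAs of the library. Only sites past the significance test of the authors were listed, so a gene at 0, and any limit derived from a 0, concerns peak cDNAs and not all crosslinked cDNAs.

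Depth differed widely, with 1693951 and 1875459 peak cDNAs in the dyskerin libraries, 585454 and 1976518 in the GAR1 libraries, 146514 and 8183 in the dyskerin-set IgG and 295255 and 10701 in the GAR1-set IgG. As a check of the precipitated complex, the share of snoRNAs and scaRNAs in these cDNAs was taken. It was 16.5% and 19.97% with dyskerin and 84.9% and 85.6% with GAR1. In the dyskerin-set IgG it was 19.3% and 60.6%, and in the GAR1-set IgG 81.8% and 67.1%. The check did not set dyskerin apart from its IgG. It set GAR1 only narrowly above the deeper library of its IgG, so it does not show that the complex was enriched over IgG. By this share the second library of the dyskerin-set IgG stood apart from the first. The second library of each IgG set held no member but NEAT1. Because the share of guide RNAs sets how many cDNAs are left for other genes, levels are also given relative to the peak cDNAs outside snoRNAs and scaRNAs, a scaling chosen after these shares were seen.

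NEAT1 (ENSG00000245532.11) spans chr11:65422774-65445540 on the plus strand of GRCh38, 22767 nt that are exonic throughout in GENCODE 44, as were the sites of the other 4 RNAs. It held sites in all 8 libraries, at 1370 distinct nucleotides in all, and the sites with the most cDNAs were not the same with dyskerin as with GAR1, although many nucleotides held cDNAs with both. The sequences around leading sites of either antibody are shown, each with 14 bases of GRCh38 on either side of the crosslinked base, which stands in capitals (T is uridine in the RNA).
NEAT1 1638: taagctgtagaacaTtttaacgttgatgc
NEAT1 1590: tccggtcatactagTtttgtgcttggaac
NEAT1 1433: tatggggggcaatcTtaaaaagtccacag
NEAT1 22: ttgtggcaagtccaGccggagttagcgac
NEAT1 379: gaaggcagggagagGtagaaggggtggag
NEAT1 2225: aggggagagggttgGttagagatacagtg
The first 3 had the highest mean CPM over the antibody libraries, with positions counted from 1 at the 5′ end of the gene. The last 3 were among the 5 highest over the GAR1 libraries, of positions where both GAR1 libraries held cDNAs. Their presence in both GAR1 libraries thus follows from the choice. All of these are on chr11, at 65424411, 65424363, 65424206, 65422795, 65423152 and 65424998 in the order listed.

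At position 1638 there were 36 and 44 cDNAs with dyskerin, 0 and 0 with GAR1, 6 and 0 in the dyskerin-set IgG and 0 and 0 in the GAR1-set IgG. Position 1590 held 34 and 29 cDNAs with dyskerin, 0 and 1 with GAR1 and 1 and 1 in the dyskerin-set IgG. Position 1433 held 33 and 28 cDNAs with dyskerin and none in any other library. The mean that chose these 3 uridines rests mostly on the dyskerin libraries, so their dyskerin counts are a description, and the GAR1 libraries were at or near 0 there. At position 22, close to the 5′ end, the counts were 14 and 0 with dyskerin, 8 and 19 with GAR1, 1 and 0 in the dyskerin-set IgG and 4 and 0 in the GAR1-set IgG. Position 379 held 14 and 0 cDNAs with dyskerin, 12 and 5 with GAR1 and none in the IgG libraries. Position 2225 held 17 and 5 with dyskerin, 7 and 4 with GAR1 and 2 and 0 in the dyskerin-set IgG. These guanines were crosslinked with both antibodies, although dyskerin replicate 2 had no cDNA at the first and second of them. Also among the 5 highest over the GAR1 libraries, but not shown, were a guanine at 365 and a uridine at 93. Position 365 held 6 and 3 cDNAs with dyskerin, 8 and 6 with GAR1 and 4 in replicate 1 of the GAR1-set IgG. Position 93 held 15 and 4 with dyskerin and 6 and 6 with GAR1. It also held 4 in replicate 1 of the dyskerin-set IgG and 6 in replicate 1 of the GAR1-set IgG.

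In level, NEAT1 was at 1776 and 1044 CPM with dyskerin (95% Wilson intervals 1713 to 1840 and 999 to 1091), from 3008 and 1958 cDNAs. It was at 700.3 and 351 CPM with GAR1 (636 to 771 and 326 to 378), from 410 and 694 cDNAs. The dyskerin-set IgG had 846 and 1222 CPM (709.9 to 1009 and 664 to 2248), from 124 and 10 cDNAs, and the GAR1-set IgG had 417 and 561 CPM (349 to 497 and 257 to 1223), from 123 and 6 cDNAs. All intervals cover counting error only, and how abundant the RNA was and how often it was crosslinked cannot be told apart in these libraries. The dyskerin libraries were above both GAR1 libraries, and each antibody overlapped with its own IgG set. Group means were 1409.9 ± 517 CPM for dyskerin, 526 ± 247 for GAR1, 1034 ± 266 for the dyskerin-set IgG and 489 ± 102 for the GAR1-set IgG (SD, n = 2 each).

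**Figure D1:**
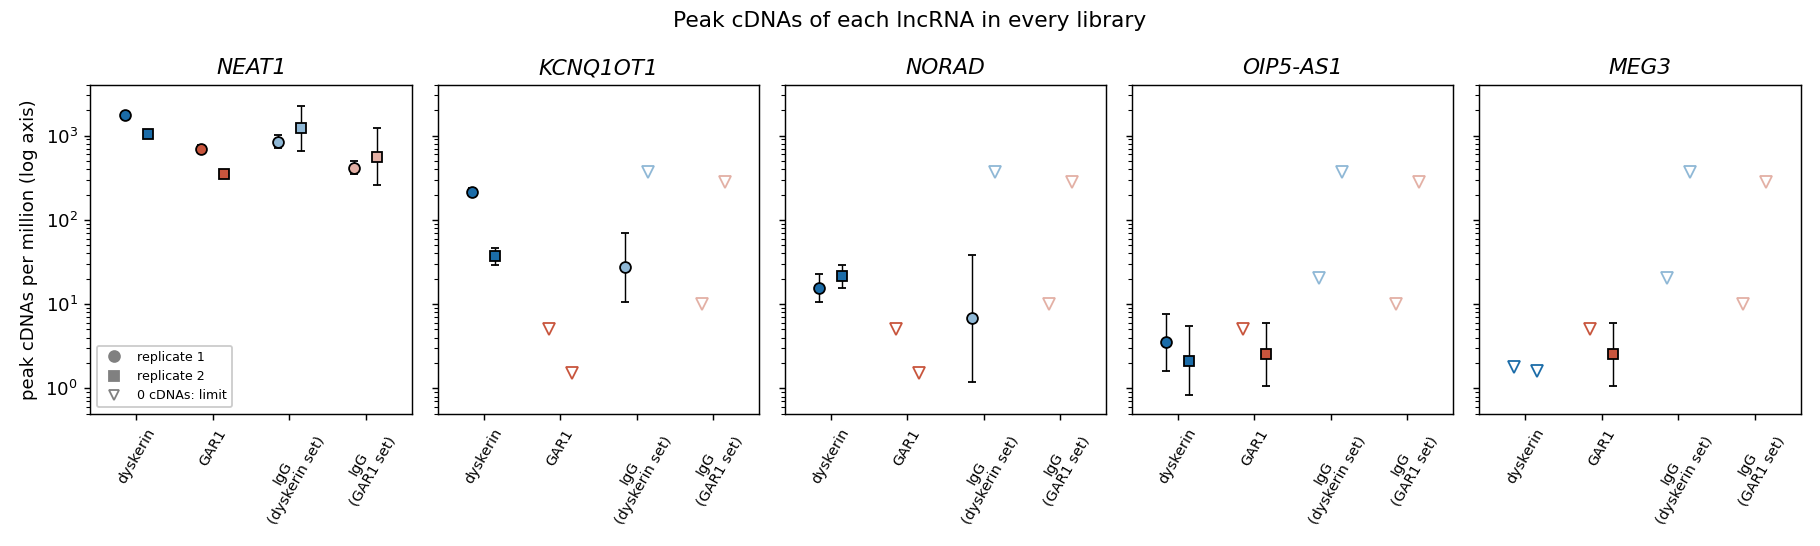
Level of each lncRNA in CPM on a log axis, by group, with circles for replicate 1, squares for replicate 2, bars for 95% Wilson intervals and open triangles for the limit that 0 cDNAs allow in a library. NEAT1 was present in all 8 libraries, between 351 and 1776 CPM, whereas the other 4 RNAs were at 0 in most of them.

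Scaling decided the order of dyskerin and GAR1. In the same way relative to the peak cDNAs outside snoRNAs and scaRNAs, NEAT1 was at 2126 and 1305 with dyskerin, 4639 and 2442 with GAR1, 1049 and 3099 in the dyskerin-set IgG and 2286 and 1706 in the GAR1-set IgG. On this scale both GAR1 libraries were above both dyskerin libraries, the reverse of the order in CPM. The same libraries therefore gave a ratio of means, dyskerin over GAR1, of 2.68 in CPM and of 0.485 outside guide RNAs.

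**Figure D2:**
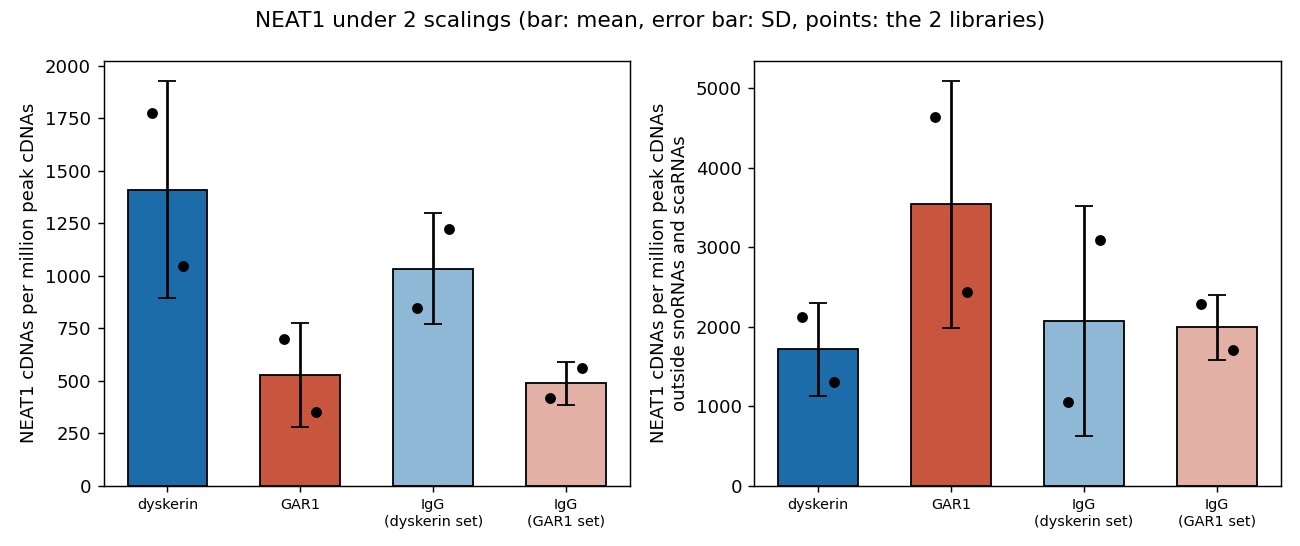
NEAT1 in CPM (left) and relative to the peak cDNAs outside snoRNAs and scaRNAs (right), with bars for the mean of the 2 libraries, error bars for the SD and a point for each library. Dyskerin averaged 1409.9 and GAR1 526 on the left, and 1715 and 3540.3 on the right.

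Whether the antibodies exceeded their IgG was tested by edgeR's quasi-likelihood test on all 8 libraries, with the total of peak cDNAs as library size and Benjamini-Hochberg adjustment over 6453 genes. NEAT1 had a log2 fold change of 0.47 ± 1.39 (SE) for dyskerin over its IgG (adjusted p = 0.866). Over all alternatives it ran between −0.19 (scaled outside guide RNAs, adjusted p = 0.956) and 2.69 ± 1.21 (sites of at least 3 cDNAs, unadjusted p = 0.0261, adjusted p = 0.164), and it was 1.21 with DESeq2 (adjusted p = 0.991). For GAR1 over its IgG it was 0.13 ± 1.41 (adjusted p = 1), between −0.45 without GAR1 replicate 1 (adjusted p = 1) and 3.99 ± 2.18 with TMM (adjusted p = 0.327), and it was −0.22 with DESeq2 (adjusted p = 1). Of the members, 3 passed the count filter of at least 10 cDNAs in at least 2 libraries, KCNQ1OT1 and NORAD through the dyskerin libraries alone. For dyskerin over its IgG edgeR called 0 of them, with 0 at an unadjusted p under 0.05 and 0 by DESeq2, where 0.108% of all genes were called, all 7 of them lower with dyskerin. For GAR1 over its IgG, where 0.139% of all genes were called, all 9 of them lower with GAR1, NEAT1 was the 1 member with cDNAs to compare, and it was called neither by edgeR, also before adjustment, nor by DESeq2.

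For dyskerin over GAR1, NEAT1 had 1.42 ± 1.38 on the log2 scale (adjusted p = 0.313), in a comparison in which 93.3% of all genes were called. The median over all tested genes was 6.56 in this comparison, 5.60 with scaling outside guide RNAs, 5.55 with TMM and 8.57 with DESeq2, but 3599 of the 6453 genes were at 0 in GAR1 and their fitted values are no measure of size. With those genes at their bounds the median in CPM was 3.59. NEAT1 had −1.04 ± 1.42 with scaling outside guide RNAs (adjusted p = 0.483) and −1.88 ± 1.99 with TMM (adjusted p = 0.428). It passed the threshold upwards with DESeq2 (3.52 ± 1.36, adjusted p = 0.0231), with sites of at least 3 cDNAs (3.21 ± 1.16, adjusted p = 0.00683), with only dyskerin and GAR1 in the fit (1.43 ± 0.54, adjusted p = 0.0205) and without replicate 1 of the dyskerin-set IgG (1.43 ± 0.64, adjusted p = 0.0487). The difference between the antibody-over-IgG contrasts was 0.34 ± 1.98 (adjusted p = 1.0), where 2.85% of all genes were called.

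The position of the cDNAs along NEAT1 differed more clearly between the antibodies than the level did, and it was described without a test because the segments were chosen after the profile was seen. In the second kilobase lay 63.4% of NEAT1 cDNAs in dyskerin replicate 1 (95% Wilson interval 61.6 to 65.1) and 80.1% in replicate 2 (78.3 to 81.8). With GAR1 the second kilobase held 4.63% (2.99 to 7.12) and 20.5% (17.6 to 23.6). The dyskerin-set IgG held 62.9% (54.1 to 70.9) and 60% (31.3 to 83.2) there, and the GAR1-set IgG 10.6% (6.28 to 17.2) and 50% (18.8 to 81.2), the last from 6 cDNAs. Both libraries of the dyskerin-set IgG thus lay near dyskerin, and the deeper library of the GAR1-set IgG lay between the GAR1 libraries. Antibody and library set cannot be told apart in this design.

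Taken as levels, the second kilobase had 1125 and 836 CPM with dyskerin, 32.5 and 71.8 with GAR1, 532 and 733 in the dyskerin-set IgG and 44.03 and 280.3 in the GAR1-set IgG. The first kilobase had 322 and 106 CPM with dyskerin, 343 and 98.2 with GAR1, 198 and 0 in the dyskerin-set IgG and 189.7 and 0 in the GAR1-set IgG. Positions 2001 to 3000 had 265 and 89.0 CPM with dyskerin, 243 and 121 with GAR1, 95.6 and 489 in the dyskerin-set IgG and 122 and 0 in the GAR1-set IgG. In CPM, dyskerin and GAR1 libraries did not overlap in the second kilobase and overlapped in the first and between 2001 and 3000. Relative to the cDNAs outside guide RNAs, dyskerin stayed above GAR1 in the second kilobase. On that scale both GAR1 libraries were above both dyskerin libraries in the first and between 2001 and 3000.

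**Figure D3:**
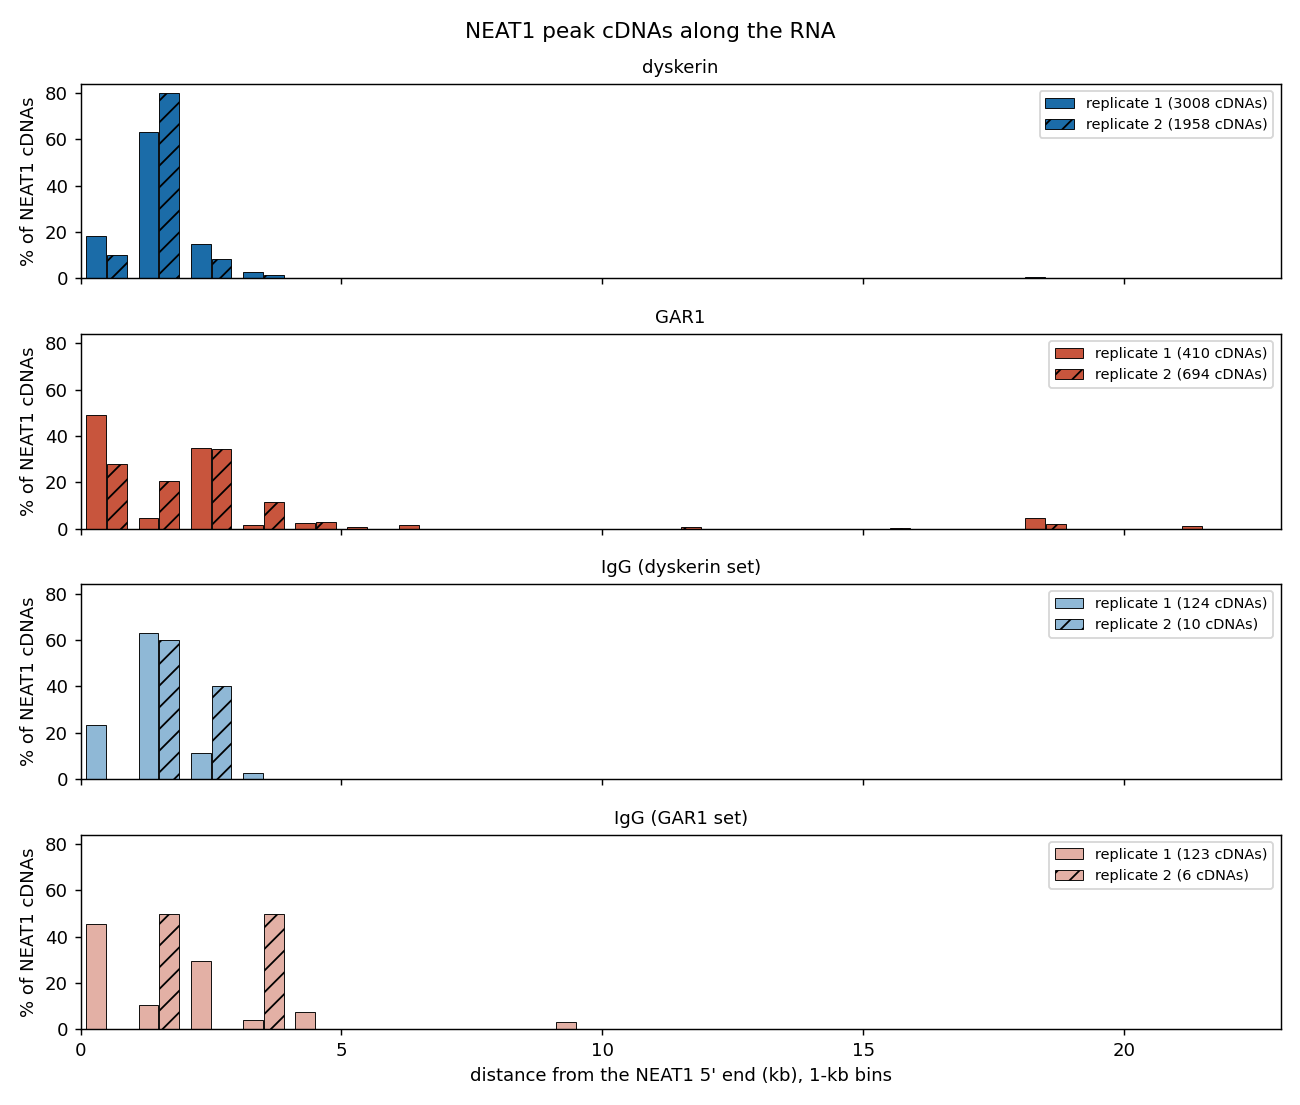
Percent of each library's NEAT1 cDNAs in 1-kb bins from the 5′ end, in 1 panel per group, with plain bars for replicate 1 and hatched bars for replicate 2. Dyskerin peaked in the second kilobase at 63.4% and 80.1%, GAR1 on either side of it, and at most 10.6% of a library's NEAT1 cDNAs lay beyond position 3684.

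Positions 1401 to 1700 are the 6 consecutive windows of 50 nt with the highest summed dyskerin CPM, so their dyskerin values are a description. They held 1058 cDNAs in dyskerin replicate 1, or 35.2% of NEAT1 cDNAs (33.5 to 36.9), and 963 in replicate 2, or 49.2% (47.0 to 51.4). It held 0 and 32 cDNAs with GAR1 (4.61%, 3.28 to 6.44, in replicate 2), 60 and 3 in the dyskerin-set IgG (48.4%, 39.8 to 57.1, in replicate 1) and 7 and 3 in the GAR1-set IgG (5.69%, 2.78 to 11.3, in replicate 1). Relative to the cDNAs outside guide RNAs the stretch had 748 and 642 with dyskerin, 0 and 113 with GAR1, 507 and 930 in the dyskerin-set IgG and 130 and 853 in the GAR1-set IgG, the second library of each IgG set with 3 cDNAs. On this scale the dyskerin values lay within the range of the dyskerin-set IgG. In CPM, by which the stretch was chosen, dyskerin had 625 and 513 and was above the dyskerin-set IgG, at 410 and 367. The densest window of 50 nt was 1601 to 1650 in both dyskerin libraries (8.48% and 14.9%) and in replicate 1 of the dyskerin-set IgG (28.2%). It was 351 to 400 in both GAR1 libraries (16.6% and 7.20%) and in replicate 1 of the GAR1-set IgG (16.3%).

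**Figure D4:**
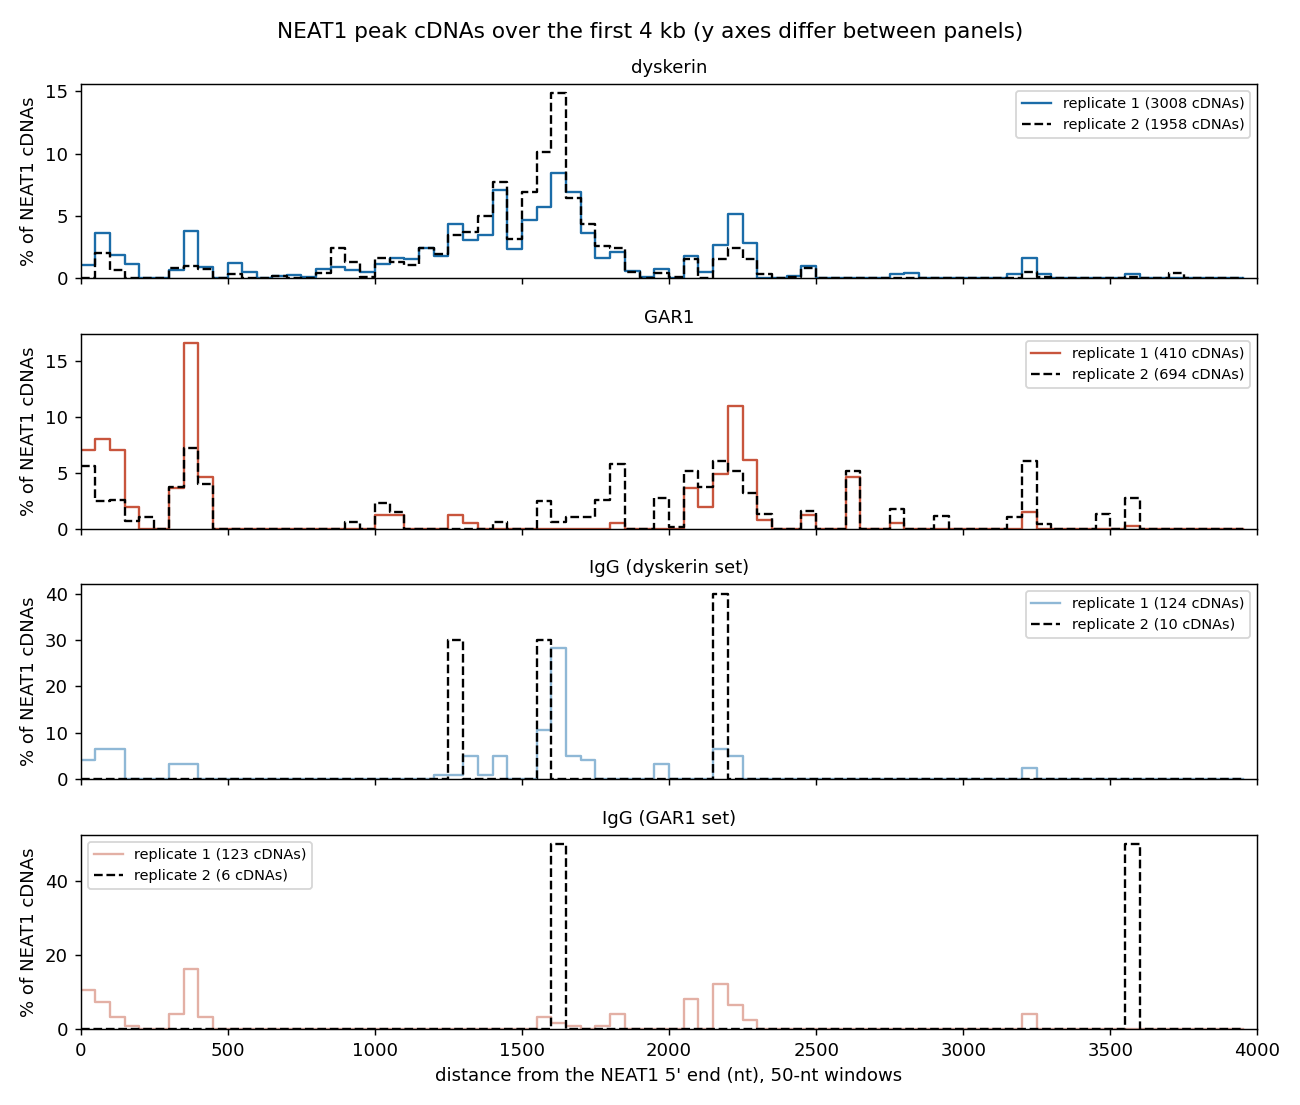
Percent of each library's NEAT1 cDNAs in 50-nt windows over the first 4 kb, with a coloured line for replicate 1 and a black dashed line for replicate 2, and a y axis of its own in each panel. The broad dyskerin peak around 1601 to 1650 recurred in replicate 1 of the dyskerin-set IgG, and the GAR1 peak at 351 to 400 in replicate 1 of the GAR1-set IgG.

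Single nucleotides were shared in part between replicates. Both dyskerin libraries had a site at 476 positions, 48.97% of those in replicate 1 and 70.3% of those in replicate 2, and both GAR1 libraries had one at 117, 50.4% of those in replicate 1 and 33.1% of those in replicate 2. All 4 antibody libraries shared 48 positions, of which 25 had no site in any IgG library. In all, 335 positions were in both dyskerin libraries and in neither GAR1 library, and 25 were in both GAR1 libraries and in neither dyskerin library. Dyskerin replicate 1 held 136 (58.6%) of the sites of GAR1 replicate 1 and 210 (59.3%) of those of GAR1 replicate 2, with 68.5% and 67.3% of their cDNAs, whereas the GAR1 replicates had 62.9% and 45.0% of their cDNAs at positions of each other. Of the 88 sites in replicate 1 of the dyskerin-set IgG, 78 (88.6%, and 8.02% of the sites of that dyskerin library) were also in dyskerin replicate 1, and 21 (23.9%, and 9.05%) were in GAR1 replicate 1. Of the 87 sites in replicate 1 of the GAR1-set IgG, 41 (47.1%, and 17.7%) were in GAR1 replicate 1, 56 (64.4%, and 15.8%) in GAR1 replicate 2 and 67 (77.0%, and 6.89%) in dyskerin replicate 1. The dyskerin lists were the longest, so a share of an IgG list tends to be larger against them.

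The first 3684 nt are common to the long isoform and the extent of the short one, taken as the end of the transcript NEAT1-201, and cDNAs in them cannot be assigned to either. They held 99.2% and 99.5% of NEAT1 cDNAs with dyskerin, 90.0% and 94.4% with GAR1, 100% and 100% in the dyskerin-set IgG and 89.4% and 100% in the GAR1-set IgG. The 7 libraries with at least 10 NEAT1 cDNAs were compared by an exact two-sided permutation test. The mean was 95.8% ± 4.51 in the antibody libraries (SD, n = 4) and 96.5% ± 6.10 in the IgG libraries (n = 3), a difference of −0.70 percentage points (p = 0.8, adjusted p = 0.914 over 2 tests, exact permutation test), where the smallest p that this design allows is 0.0571. The test pooled both library sets, so its spread includes the difference between sets, and it cannot compare an antibody with its own IgG.

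Past position 3684, other spliced models of NEAT1 still reach up to position 3740, and only the long isoform goes beyond that. The 19083 nt after position 3684 held 25 and 9 cDNAs with dyskerin (14.8 and 4.80 CPM), 41 and 39 with GAR1 (70.0 and 19.7 CPM), 0 and 0 in the dyskerin-set IgG and 13 and 0 in the GAR1-set IgG (44.03 CPM in replicate 1). As a share of NEAT1 cDNAs this was 0.831% (0.564 to 1.22) and 0.460% (0.242 to 0.871) with dyskerin and 10.0% (7.46 to 13.3) and 5.62% (4.14 to 7.59) with GAR1. Dyskerin was therefore below GAR1 there in CPM, also relative to the cDNAs outside guide RNAs (17.7 and 5.996 with dyskerin and 464 and 137 with GAR1), and replicate 1 of the GAR1-set IgG, at 10.6% (6.28 to 17.2), was not below GAR1. The 9 cDNAs of dyskerin replicate 2 all lay in the window from 3701 to 3750, where spliced models end, and so cannot be assigned to the long isoform.

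Part of the distal GAR1 signal was a single patch of 30 nt, positions 18127 to 18156 (chr11:65440900-65440929). The patch runs from the first to the last GAR1 site of its 1-kb bin. This choice favours GAR1, so the GAR1 counts of the patch are a description. Its sequence is shown around position 18134, where GAR1 replicate 2 had the most cDNAs, 6, and GAR1 replicate 1 had 0. GAR1 replicate 1 had the most at position 18144, with 4.
NEAT1 18134: tcttctgcttggacTtaagggcatcatca
The patch held 9 and 0 cDNAs with dyskerin, 19 and 14 with GAR1 and 0 in each of the 4 IgG libraries. It made up 4.63% (2.99 to 7.12) and 2.02% (1.21 to 3.36) of NEAT1 cDNAs with GAR1. In dyskerin replicate 1 it made up 0.299% (0.157 to 0.568). Over the whole 1-kb bin dyskerin replicate 1 held 17 cDNAs (0.565%, 0.353 to 0.903), those outside the patch lying downstream of it. The GAR1 counts of the whole bin were the same as those of the patch. In replicate 1 of the GAR1-set IgG, 0 of 123 cDNAs allow a share of up to 2.44%, which is below GAR1 replicate 1 and above GAR1 replicate 2, so at this depth an excess over IgG was not detectable in both GAR1 libraries.

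Uridine was the crosslinked base in 36.1% and 42.7% of NEAT1 cDNAs with dyskerin, 24.9% and 29.8% with GAR1, 39.5% and 30% in the dyskerin-set IgG and 26.8% and 50% in the GAR1-set IgG. Uridine makes up 31.7% of NEAT1, 27.6% of its first 3684 nt and 27% of its second kilobase. The dyskerin libraries were above the GAR1 libraries without overlap, but the 4 antibody libraries together (33.4% ± 7.73) and the 3 IgG libraries with at least 10 cDNAs (32.1% ± 6.60) differed by 1.27 percentage points (p = 0.914, adjusted p = 0.914, exact two-sided permutation test, smallest possible p 0.0571). With each site counted once the antibody libraries were at 29.0% ± 2.22, and the difference from IgG was −1.13 percentage points (p = 0.629, exact permutation test). The antibody libraries thus spread less by site than by cDNA, so the gap between dyskerin and GAR1 depends on how sites are weighted. In these tests too the library sets were pooled, with the same limit. None of the 30-nt sequences downstream of the NEAT1 sites had an exact copy elsewhere in the genome.

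KCNQ1OT1 (ENSG00000269821.2; chr11:2597308-2700003, minus strand, 102696 nt) lies antisense within the gene KCNQ1 and was seen with dyskerin and in 1 IgG library. It had 213 and 36.8 CPM with dyskerin (intervals 192 to 236 and 29.1 to 46.6), from 361 and 69 cDNAs, and 27.3 and 0 CPM in the dyskerin-set IgG, from 4 and 0 cDNAs. With GAR1 it had 0 and 0, which allow up to 5.12 and 1.52 CPM, and it had 0 and 0 in the GAR1-set IgG, which allow up to 10.2 and 280.3 CPM. The dyskerin replicates did not overlap with each other, and both were above the GAR1 limits. The mean with dyskerin was 125 ± 125 CPM (SD, n = 2), against 13.7 ± 19.3 in its IgG, a log2 fold change of 2.31 ± 1.24 (edgeR, adjusted p = 0.173), and the second IgG library allowed up to 367 CPM.

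Against GAR1, with the floor at the mean of the limits of both GAR1 libraries (3.32 CPM, and 22.2 outside guide RNAs), KCNQ1OT1 was at least 37.6-fold higher with dyskerin in CPM and at least 6.77-fold higher outside guide RNAs. This rests on dyskerin replicate 1, since replicate 2 alone was at least 11.1-fold above the floor in CPM, against 64.2-fold for replicate 1. The edgeR test of dyskerin over GAR1 is not given, because KCNQ1OT1 passed the count filter through the dyskerin libraries and stood against 0. GAR1 over its IgG has no fold because both were at 0. Over all tested genes, 3599 of 6453 were at 0 in GAR1, and 5847 (90.6%) were called higher with dyskerin than with GAR1.

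The KCNQ1OT1 cDNAs were thinly spread rather than piled up. Of the sites 79.4% and 78.6% in the dyskerin libraries had a single cDNA, the highest count at 1 nucleotide was 4, and the sites ran from position 21933 to 65857 in replicate 1 and from 31188 to 60939 in replicate 2. The bin from 50001 to 55000 held the most cDNAs in both, 114 (31.6%) and 29 (42.0%), followed by 55001 to 60000 with 105 (29.1%) and 15 (21.7%). The replicates agreed on the region but seldom on the nucleotide, with 9 shared positions, 3.15% of the 286 in replicate 1 and 16.1% of the 56 in replicate 2. The 3 IgG sites, at 52137 to 52147, were at none of the dyskerin positions. Of the 3 leading sites the one that both dyskerin libraries held is shown, at chr11:2649923-2649923.
KCNQ1OT1 50081: aacaatatttcacaTtttgggagttccag
It had 3 and 1 cDNAs with dyskerin and 0 in all other libraries. Over all 336 KCNQ1OT1 positions the crosslinked base was uridine in 40.8% and guanine in 10.1%, against 23.8% and 22.1% of the whole RNA. The makeup of the stretch from 21933 to 65857, which held all sites, was not determined, so these shares do not show a base preference. Sites whose downstream 30 nt recur elsewhere in the genome carried 4.99% and 2.90% of the dyskerin cDNAs.

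NORAD (ENSG00000260032.2; chr20:36045618-36051018, minus strand, 5401 nt, a single exon) had 15.3 and 21.3 CPM with dyskerin (10.5 to 22.5 and 15.7 to 29.0), from 26 and 40 cDNAs. It had 0 and 0 with GAR1, 6.83 and 0 CPM in the dyskerin-set IgG, from 1 and 0 cDNAs, and 0 and 0 in the GAR1-set IgG. The dyskerin libraries agreed within counting error, and the IgG library with 1 cDNA has an interval of 1.20 to 38.7 CPM that covers both. The log2 fold change of dyskerin over its IgG was 1.5 ± 1.46 (edgeR, adjusted p = 0.504). Against the same GAR1 floor, NORAD was at least 5.52-fold higher with dyskerin in CPM. This bound lies below the median of all tested genes, a log2 fold change of 3.59 with genes at 0 held at their bounds. Outside guide RNAs NORAD had 18.4 and 26.7 with dyskerin, and 0 and 0 with GAR1, which allow up to 33.9 and 10.6, so a difference was not detectable at this depth on that scale. As for KCNQ1OT1, the filter was passed through dyskerin and no test is given.

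All NORAD sites lay in 1 short stretch, from position 623 to 1031 in replicate 1 and from 884 to 1031 in replicate 2 of dyskerin. The 2 replicates shared 7 positions, 38.9% of the 18 in replicate 1 and 26.9% of the 26 in replicate 2, and the only IgG site, at 968, was among them. The leading positions are shown because they also mark where the stretch is and is not unique in the genome.
NORAD 968: taaattctcatttgTttaaaagaaatcat
NORAD 1010: cttctggagatgacTtttggaaatggagt
Position 968 (chr20:36050051-36050051) held 1 and 4 cDNAs with dyskerin and 1 in replicate 1 of its IgG, and position 1010 (chr20:36050009-36050009) held 2 and 2 with dyskerin. The 30 nt after position 968 occur at 2 places in the genome and those after 1010 at 1. In all, 38.5% and 70.0% of the dyskerin cDNAs of NORAD were at positions whose next 30 nt have an exact copy elsewhere, most of them in HCG11 on chr6 (11 positions) and OVCH1-AS1 on chr12 (13 positions). None of these copies held a site in any library. The authors' counting admitted reads with several alignments, so these NORAD cDNAs are uncertain as NORAD. No window of 29 nt around the 37 NORAD positions held a whole TGTANATA, the element that Pumilio proteins bind (given strand), which occurs 15 times in NORAD and lies in 5.42% of all such windows along it. Only 1 of the 15 elements lies between the first and last site, so these overlapping windows cannot show whether the sites avoid the element.

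**Figure D5:**
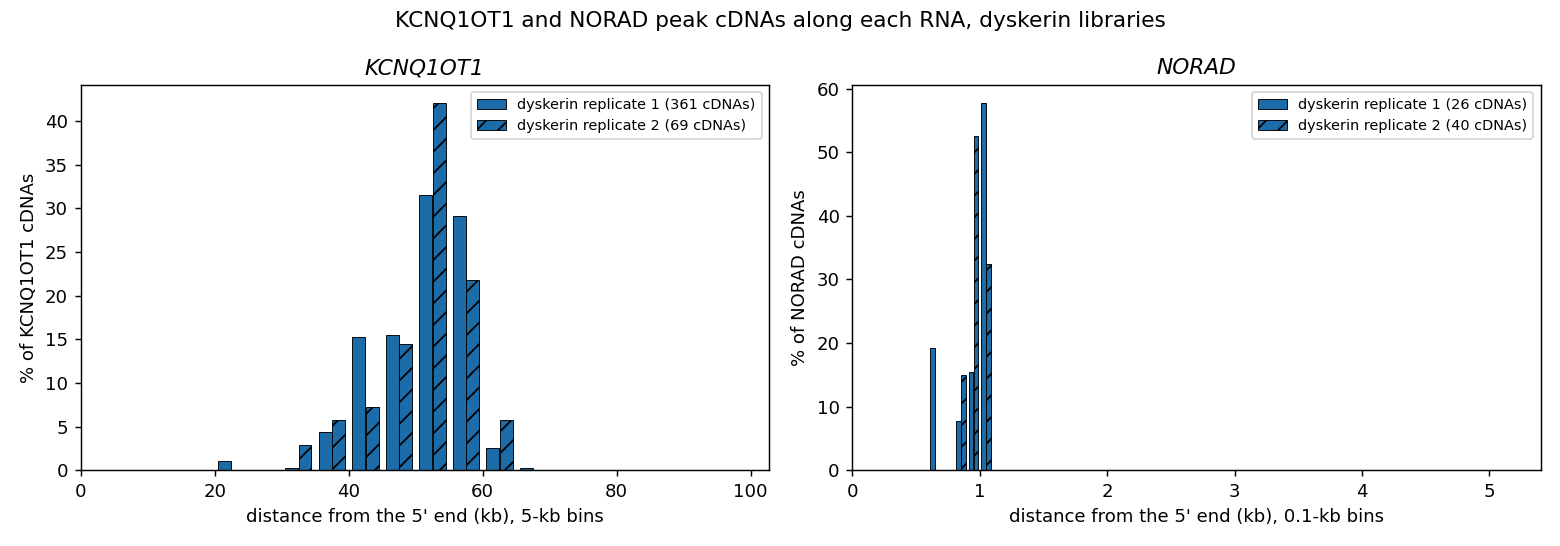
Percent of dyskerin cDNAs along KCNQ1OT1 in 5-kb bins (left) and along NORAD in 0.1-kb bins (right), with plain bars for replicate 1 and hatched bars for replicate 2, over the whole length of each RNA. KCNQ1OT1 cDNAs centred on 50 to 60 kb in both replicates and all NORAD cDNAs lay before 1.1 kb.

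OIP5-AS1 (ENSG00000247556.7; chr15:41283958-41322392, plus strand) and MEG3 (ENSG00000214548.18; chr14:100779410-100861031, plus strand) were at the edge of detection and did not pass the count filter. OIP5-AS1 had 6 and 4 cDNAs with dyskerin (3.54 and 2.13 CPM), 0 and 5 with GAR1 (2.53 CPM in replicate 2) and 0 in the 4 IgG libraries. The dyskerin replicates used different places, positions 1278 to 1283 in replicate 1 and 14405 to 14408 in replicate 2, and GAR1 replicate 2 had its sites at 14405 to 14413.
OIP5-AS1 14408: atttgtgaatacttTtcattccaagcaag
The 30 nt after this position (chr15:41298365-41298365), which held 3 cDNAs in dyskerin replicate 2 and 1 in GAR1 replicate 2, occur at 3 places in the genome, as do those of all sites in these libraries, so these cDNAs are uncertain as OIP5-AS1. The copies held no site. MEG3 had 1 site, with 5 cDNAs in GAR1 replicate 2 (2.53 CPM, 1.08 to 5.92) and 0 in the other 7 libraries, where 0 allows up to 1.77 and 1.60 CPM with dyskerin, 5.12 in GAR1 replicate 1, 20.5 and 367 in the dyskerin-set IgG and 10.2 and 280.3 in the GAR1-set IgG.
MEG3 78256: ttgccctgccccccAttccaacgtgggct
This site (chr14:100857665-100857665) lay in an exon and its downstream 30 nt are unique.

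Per kilobase of gene span, the members with dyskerin ranked NEAT1 first, at 78.0 and 45.9 CPM per kb, then NORAD at 2.84 and 3.95, KCNQ1OT1 at 2.08 and 0.358, OIP5-AS1 at 0.0922 and 0.0555, and MEG3 at 0. The values of neighbours in this order did not overlap, and the closest were NORAD (3.40 ± 0.783) and KCNQ1OT1 (1.22 ± 1.21; SD, n = 2 each), whose intervals overlapped in replicate 1. With only the sites whose next 30 nt are unique, NORAD had 1.75 and 1.18 CPM per kb and KCNQ1OT1 1.97 and 0.348, which overlap, so their order depends on the NORAD cDNAs that are uncertain. In the GAR1 libraries NEAT1 had 30.8 and 15.4 CPM per kb and no other member exceeded 0.0658.

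Among 8 libraries, the 5 genes whose log2(CPM + 1) followed NEAT1 most closely were MAGED1 (Pearson r = 0.925), ADGRV1 (0.923), RIMS2 (0.916), VPS13C (0.911) and SNX13 (0.899), given as a description. MAGED1 had 185 and 145 CPM with dyskerin, 5.12 and 0 with GAR1, 68.3 and 244 in the dyskerin-set IgG and 0 and 0 in the GAR1-set IgG. The libraries share depth and guide RNA content as sources of such likeness.

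Of 15 other listed nuclear lncRNAs, 9 were tested. For dyskerin over IgG and for GAR1 over IgG edgeR called 0 of them, with 2 and 4 at an unadjusted p under 0.05, and DESeq2 called 0 and 1. With dyskerin over GAR1, 8 were higher and 1 lower, a share near that of all genes, of which 5847 of 6453 (90.6%) were higher and 172 lower. Their median log2 fold change was 3.45, against 3.59 over all genes with genes at 0 held at their bounds. The number higher was 3 with scaling outside guide RNAs, 2 with TMM and 7 with DESeq2, where 75.7%, 38.3% and 52.8% of all genes were. MALAT1, the speckle-associated RNA encoded next to NEAT1, had 41857 and 44633 CPM with dyskerin, 4578 and 3332 with GAR1, 91698 and 81510.4 in the dyskerin-set IgG and 3810.3 and 13457 in the GAR1-set IgG. DANCR, which hosts snoRNAs, was the lower one, at 864 and 1227 CPM with dyskerin and 8667 and 7543 with GAR1 (log2 fold change −2.95, edgeR, adjusted p = 0.00205). It passed the test downwards also with TMM and outside guide RNAs, but not with DESeq2. The dyskerin-set IgG had 1706 and 5621 CPM of DANCR and the GAR1-set IgG had 11614 and 9532. Each IgG set was thus above its own antibody, and the IgG sets differed in the same direction as the antibodies.

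The mRNAs of 15 paraspeckle proteins were all tested. By edgeR 0 were called for dyskerin over its IgG and 0 for GAR1 over its IgG, with 4 and 1 at an unadjusted p under 0.05 and 0 and 0 by DESeq2. All 15 were higher with dyskerin than with GAR1, where 90.6% of all genes were, with a median log2 fold change of 4.55 against 3.59 over all genes at bounds. The number higher was 8 with scaling outside guide RNAs, 2 with TMM and 12 with DESeq2, where 75.7%, 38.3% and 52.8% of all genes were. SFPQ, a core paraspeckle protein that binds NEAT1, had 641 and 1001 CPM with dyskerin and 27.3 and 42.0 with GAR1, against 1051 and 0 in the dyskerin-set IgG and 44.03 and 561 in the GAR1-set IgG. NONO, its partner, had 217 and 302 CPM with dyskerin, 0 and 6.07 with GAR1 and 218 and 0 in the dyskerin-set IgG. PUM2, a Pumilio protein that binds NORAD, had an mRNA level of 212 and 227 CPM with dyskerin and 6.83 and 0 with GAR1. It had 225 and 0 CPM in the dyskerin-set IgG and 0 and 0 in the GAR1-set IgG. Its test of dyskerin over GAR1 is not given, because PUM2 passed the count filter without the GAR1 libraries.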

How the data were processed

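The authors' processing, per their methods and the labels, used FastQC 0.11.9, Cutadapt, STAR 2.7.0e on GRCh38 with GENCODE 27 and iCount 2.0.1.dev, which admitted reads with up to 50 alignments and tested sites per gene and library (3 nt to either side, 100 permutations, false discovery rate 0.05). The deposited values are counts of unique cDNAs per significant crosslink nucleotide, not normalized, with replicates not pooled. A second deposited file per library holds counts per cluster and served as an alternative.

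Sites were assigned by strand to GENCODE 44 genes, with the members first, then short RNAs, exons and introns, and the shortest gene where several overlapped, which placed 99.988% to 100% of the peak cDNAs. The members, lists and comparisons were chosen with earlier results of these data known. The test was the quasi-likelihood test of edgeR 4.0.16 in R 4.3.3 on all 8 libraries, with total peak cDNAs as library size, for genes that reached 10 cDNAs in 2 or more libraries, at an adjusted p of 0.05. DESeq2 1.42.0, TMM, other filters, at least 3 cDNAs per site, leaving out each library and a replicate block were alternatives, and scaling outside snoRNAs and scaRNAs was added after the data were seen. The edgeR step was tested on simulated data. Exact permutation tests used SciPy 1.17.1. Intervals are 95% Wilson intervals, and a count of 0 was given a limit of 3 cDNAs. Named sites were the 5 (NEAT1) or 3 (others) of highest mean CPM over the antibody libraries. The sites leading in GAR1, with cDNAs in both GAR1 libraries, and the patch near 18 kb of NEAT1 were added after their values were seen. Named genes were those most correlated with NEAT1 and, from each list, up to 4 of highest mean CPM. The counts of a list of NORAD partner proteins and 1 gene of that list are not reported here.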

Additional observations from a re-analysis of the deposited data

Results flagged for a closer look

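On the strand opposite to the 5 genes, 1 site was found over their whole spans. It lay within MEG3, at chr14:100836430 on the minus strand, and held 4 cDNAs (2.13 CPM) in dyskerin replicate 2. It stands outside the comparisons, which use the strand of each gene. The IgG libraries had 0 cDNAs there, which allow up to 20.5 and 367 CPM in the dyskerin set, so an excess over IgG was not detectable at this depth.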

How the results depend on the processing

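For dyskerin over its IgG, edgeR called 7 genes, all lower, against 0 with TMM, 0 with DESeq2, 26 with no filter (all lower), 766 with at least 50 counts in 2 libraries (759 higher), 763 with only the groups compared (751 higher) and 0 to 591 when 1 library was left out (591 and 484 without GAR1 replicates 1 and 2, 4 without replicate 1 of the GAR1-set IgG, 0 or 1 without a dyskerin library or replicate 2 of its IgG). For GAR1 over its IgG it called 9, all lower, against 0 with TMM, 129 with DESeq2 (108 higher), 1 with sites of at least 3 cDNAs, 54 with only the groups compared (44 higher), 1 with scaling outside guide RNAs and 0 to 170 without 1 library (170 without replicate 1 of the GAR1-set IgG, 20 and 1 without GAR1 replicates 1 and 2, 0 without any dyskerin or dyskerin-set IgG library). For dyskerin over GAR1 it called 6019, against 2753 with TMM, 3404 with DESeq2, 3281 with at least 50 counts, 2529 with sites of at least 3 cDNAs and 7 to 6140 without 1 library, the 7 and 19 without dyskerin replicates 1 and 2, when 2155 and 2137 genes passed the filter. For the difference of both contrasts it called 184 (183 higher), against 0 with TMM, 73 with DESeq2 (14 higher), 74 with at least 50 counts, 4 with sites of at least 3 cDNAs and 0 to 247 without 1 library (0 without any dyskerin or dyskerin-set IgG library or GAR1 replicate 2). With the replicate number as a block the counts were 1, 0, 4948 and 0, and same-numbered libraries were not shown to be paired (correlations of their deviations from −0.082 to 0.101). The block changed no member's call.

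NEAT1 changed sign for dyskerin over its IgG outside guide RNAs (−0.19), for GAR1 over its IgG with DESeq2 (−0.22) and over −0.45 to 0.55 without 1 library, for dyskerin over GAR1 with TMM (−1.88) and outside guide RNAs (−1.04), and for the difference with TMM (−3.09), outside guide RNAs (−0.999) and over −0.0949 to 0.92 without 1 library. The short-isoform difference was 2.57 points with sites of at least 3 cDNAs, 1.06 with at least 30 NEAT1 cDNAs and −4.23 to 1.22 without 1 library. The uridine difference was −1.13 with each site once, −17.9 with sites of at least 3 cDNAs and −1.83 to 4.97 without 1 library. The causes were not tested. KCNQ1OT1 and NORAD did not pass the filter, and so were not tested, without either dyskerin library. Of 121 alternatives of the members' fold changes 106 kept direction and call, and of 80 alternatives of their levels that keep both libraries 69 moved by no more than the SD. The IgG libraries of 8183 and 10701 cDNAs limit every comparison with IgG.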

Other observations

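The span of NEAT1 also holds 3 small RNA models of GENCODE 44 and the microRNA MIR612. The model at positions 1187 to 1345 (ENSG00000277599) held 304 and 188 cDNAs with dyskerin, or 10.1% and 9.60% of NEAT1 cDNAs, 7 and 0 with GAR1, 8 and 3 in the dyskerin-set IgG and 0 and 0 in the GAR1-set IgG. The model at 865 to 969 (ENSG00000278050) held 62 and 72 cDNAs with dyskerin, 0 and 4 with GAR1 and 0 in the IgG libraries, and that at 500 to 619 (ENSG00000278144) held 52 and 7 with dyskerin and 0 in all others. These windows carried dyskerin cDNAs in both replicates and few or no GAR1 cDNAs. MIR612, at positions 21685 to 21784, had 0 cDNAs in all 8 libraries.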
